A study of Mus musculus with 6 samples.

Results

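The miR-467 family of the Sfmbt2 intron is a set of closely related mouse miRNAs, miR-467a to miR-467e, each of which can yield a mature miRNA from the 5p and from the 3p arm of its hairpin. The members were taken by name, though with earlier results of these data known. Of 10 names, 8 had a row among the 1522 rows of the table: mmu-miR-467a-5p, mmu-miR-467a-3p, mmu-miR-467b-5p, mmu-miR-467c-5p, mmu-miR-467d-5p, mmu-miR-467d-3p, mmu-miR-467e-5p and mmu-miR-467e-3p, written below without the species prefix. miR-467b-3p and miR-467c-3p were not analysed here.

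Small RNA had been sequenced from neural stem cells, which divide to give neurons and glia, isolated from the male C57BL/6J hippocampus at postnatal day 3. In the exposed group, GDE below, the dams had been given dexamethasone, a synthetic glucocorticoid, by intraperitoneal injection at 1 mg/kg per day from embryonic day E14.5 to E18.5. Dams of the Control group were injected with saline on those days. Each group had 3 libraries, from independent litters per the design text; the library titles call GDE IUGR and Control Normal. No sort on a cell marker is given in the sources used here.

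An miRNA acts by pairing with messenger RNAs, mainly through its seed, bases 2 to 8 from its 5′ end, once 1 arm of the hairpin has been loaded into an Argonaute protein; the other arm is usually degraded. Sfmbt2 encodes a Polycomb group protein. It is known as an imprinted gene, with expression from the paternal copy, but imprinting was not examined in the cells used here. One of its introns holds a large miRNA cluster of the mouse and rat lineage. In it the miR-467 family stands beside miR-297, miR-466 and miR-669. This cluster is best known from the mouse placenta, where its deletion impairs growth of the organ.

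RefSeq (GRCm38.p6) places 14 Mir467 precursors in Sfmbt2, on chromosome 2 between 10473931 and 10507714, all on the plus strand, as the gene itself. All of them lie in 1 intron, from 10461473 to 10523944, which is intron 10 of a GENCODE coding transcript of the gene, and none overlaps an exon of a coding transcript. Mir467a has 10 of the 14 precursors and Mir467b, Mir467c, Mir467d and Mir467e have 1 each. The starts of neighbouring precursors were 1909 to 4880 bases apart, with a median of 2450, so the copies sit in a regular tandem array of 33784 bases. Mir467c stands at its 5′ end (10473931 to 10474027), Mir467b inside the run of Mir467a copies (10481248 to 10481320), and Mir467e (10505721 to 10505807) and Mir467d (10507630 to 10507714) at its 3′ end. Reads of the mature miR-467a arms cannot be assigned to 1 of the 10 precursors. The RefSeq mature sequences used here include none of miR-467a to miR-467e. Whether reads counted under 1 of these names could come from the precursor of another was therefore not checked.

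**Figure D1:**
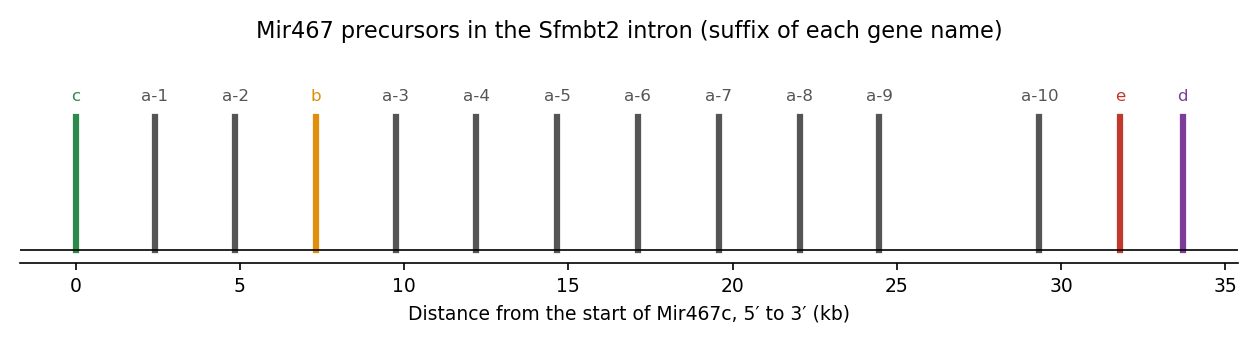
Positions of the 14 Mir467 precursors along the Sfmbt2 intron, as distance in kb from the start of Mir467c; each bar is a precursor and carries the suffix of its gene name. The 10 Mir467a copies, with Mir467b among them, fill the middle of the array. Steps between neighbouring precursors there are nearly even, except for 4880 bases from Mir467a-9 to Mir467a-10. Mir467c is at one end, and Mir467e and Mir467d are at the other.

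RefSeq annotates 3 further miR-467 miRNAs, miR-467f, miR-467g and miR-467h, outside Sfmbt2. Their mature sequences are printed to show the 2 sequence types of the wider family, one that begins around UAAGUG and one rich in AUAC and CAC repeats. Capitals mark the seed.
miR-467h, chr9:115381898-115381919, plus strand: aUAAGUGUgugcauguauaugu
miR-467f, chr11:69635419-69635439, minus strand: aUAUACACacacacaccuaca
miR-467g, chr5:34732872-34732892, minus strand: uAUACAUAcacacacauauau
Mature sequences of miR-467a to miR-467e are not among the 1679 mature names in the RefSeq table, so their seeds could not be compared. Among those names the seed of miR-467h was found in 1 other, miR-668-5p, and the seeds of miR-467f and miR-467g in no other. Of these 3, only miR-467h was analysed here, and its values stand beside those of the members below.

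Each library rested on 11751000 to 12385000 tags (sequenced reads), of which 2927136 to 3343808 were assigned to rows of the table, and values are given as RPM, tags scaled to the depth of the library. The neural miRNA miR-9-5p stood at 8259, 8630 and 8277 RPM in GDE and at 8295, 8154 and 8831 RPM in Control. Markers of other cells were present too, with all rows of each list detected in at least 1 library. The 4 microglia and leukocyte miRNAs summed to 315.4 to 477.5 RPM in GDE and to 106.7 to 256.4 RPM in Control, with miR-142a-5p at 0 in Control replicate 1. The 3 erythroid miRNAs summed to 73.8 to 93.5 RPM in GDE and to 34.98 to 69.0 RPM in Control, and the 3 choroid plexus and ependymal miRNAs to 1300 to 1675 RPM in GDE and to 1113 to 1286 RPM in Control. Within the last list miR-204-5p was at 688.0, 384.5 and 973.5 RPM in GDE and at 154.7, 325.2 and 519.1 RPM in Control, while miR-34c-5p leaned the other way, at 603.3, 767.2 and 537.8 RPM in GDE and at 1034, 668.0 and 605.0 RPM in Control. These 3 sums did not overlap between the groups. Those of the neural list, which holds miR-9-5p, and of the endothelial and mural, muscle and liver lists did. In the erythroid list miR-451a was without overlap, while miR-144-3p and miR-486a-5p overlapped. In the microglia and leukocyte list miR-142a-5p overlapped and the other rows did not. Each of the 3 choroid plexus and ependymal miRNAs overlapped when taken singly. Of the 649 single rows tested below, 30 had all GDE libraries above all Control libraries. The part of such cells in the differences given below was not tested.

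The levels of the members ranged over more than 3 orders of magnitude, and the 5p arms led. miR-467a-5p was the most abundant, at 1134, 1137 and 1062 RPM in GDE and at 1462, 1494 and 1183 RPM in Control. By its mean it was number 45 of all 1522 rows. All 3 GDE libraries lay below all 3 Control libraries. This arm alone held 67.9% to 70.8% of the RPM of the 8 members in every library. If the sum were shared evenly by the 10 precursors, with no reads from others, each would stand for 106.2 to 149.4 RPM. That range overlaps those of the single-copy miRNAs miR-467c-5p and miR-467d-5p. It lies below that of miR-467e-5p (220.3 to 294.1 RPM) and above that of miR-467b-5p (8.74 to 22.4 RPM), which also have 1 precursor each. Whether levels follow the number of copies was not tested.

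miR-467e-5p came next, at 228.7, 267.0 and 220.3 RPM in GDE and at 278.0, 294.1 and 254.8 RPM in Control. GDE replicate 2 lay above Control replicate 3, so the groups overlapped. miR-467c-5p, from the first precursor of the array, stood at 140.0, 121.5 and 114.8 RPM in GDE and at 167.1, 180.3 and 142.4 RPM in Control. Its groups did not overlap, though GDE replicate 1 and Control replicate 3 were close. miR-467d-5p, from the last precursor, was at 123.2, 102.9 and 85.7 RPM in GDE and at 117.3, 146.1 and 118.3 RPM in Control. Here GDE replicate 1 lay within the Control range.

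miR-467b-5p was far lower than the other 5p arms, at 14.4, 12.2 and 8.74 RPM in GDE and at 19.4, 22.4 and 16.3 RPM in Control. Its groups did not overlap. Mir467b sits between copies of Mir467a. As counted under these names, miR-467a-5p exceeded miR-467b-5p by a factor of 79.0 to 121.4 in GDE and of 66.8 to 75.5 in Control. Whether reads from Mir467b were also counted as miR-467a-5p was not checked.

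The 3p arms were low. miR-467d-3p was the highest of them, at 24.5, 8.55 and 5.86 RPM in GDE and at 23.3, 16.1 and 13.5 RPM in Control. GDE replicate 1 was the highest of all 6 libraries, while the other GDE libraries were the lowest. miR-467a-3p stood at 3.59, 2.71 and 1.81 RPM in GDE and at 5.15, 5.33 and 4.34 RPM in Control, with no overlap. miR-467e-3p was at 1.09, 0.931 and 0.165 RPM in GDE and at 0.582, 0.888 and 0.596 RPM in Control, on only 2 to 13 tags per library. For the 2 tags of GDE replicate 3 the exact Poisson interval (95%, counting error only) runs from 0.0200 to 0.596 RPM. The groups overlapped, with GDE libraries at both ends of the range, and this arm was too low to be tested.

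**Figure D2:**
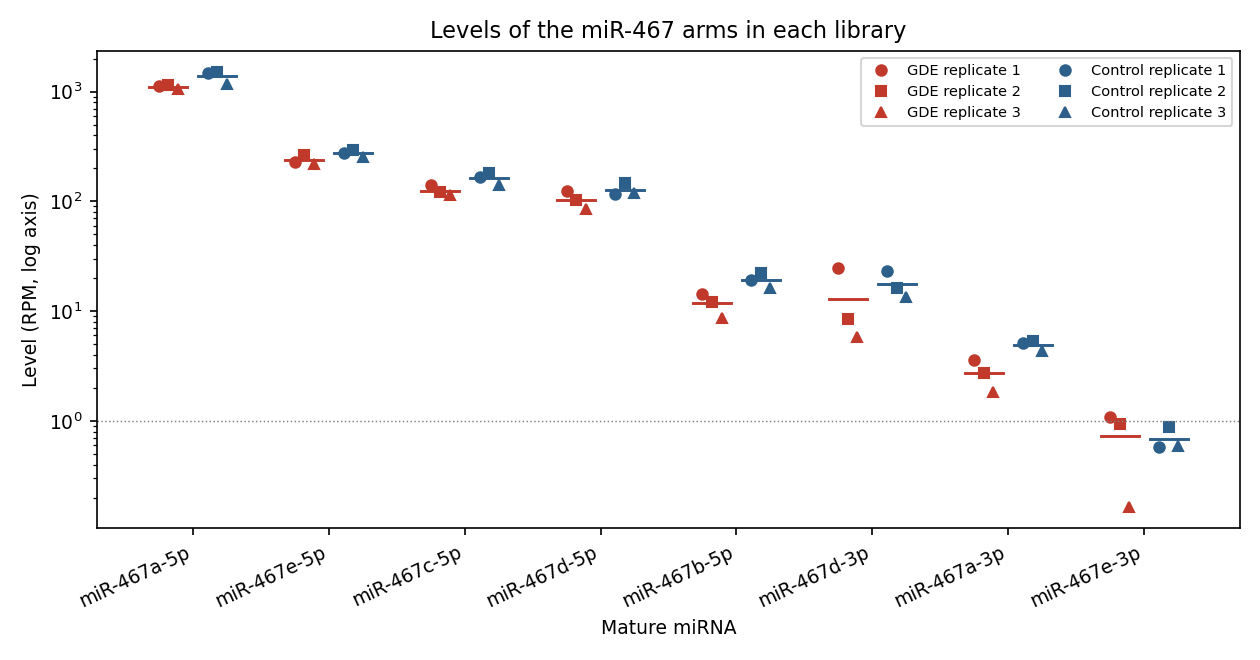
Level of each miR-467 arm (RPM, log axis) in the 3 GDE and the 3 Control libraries, ordered by the mean over all libraries; symbols are libraries, short lines are group means and the dotted line marks 1 RPM. miR-467a-5p lies between 1062 and 1494 RPM, the 5p arms of miR-467e, miR-467c and miR-467d between 85.7 and 294.1 RPM, and GDE replicate 1 stands apart for miR-467d-3p.

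Ordered by the mean over the 6 libraries, the members ran from miR-467a-5p over miR-467e-5p, miR-467c-5p, miR-467d-5p, miR-467b-5p, miR-467d-3p and miR-467a-3p to miR-467e-3p. Of the 7 neighbouring pairs in this order, 5 were set apart in that their ranges over the 6 libraries did not overlap. The ranges of miR-467c-5p and miR-467d-5p overlapped, although miR-467c-5p was the higher in each of the 6 libraries, by a factor of 1.14 to 1.43. miR-467b-5p and miR-467d-3p could not be ordered, since miR-467b-5p was the higher in 4 libraries of 6. RPM of different miRNAs also depend on how well each sequence is ligated and amplified, which was not measured, while mature miRNAs are of nearly 1 length and need no scaling for it. None of the 8 members had a row elsewhere in the table with identical values in the 6 libraries, although the copies are closely related. Of all 1522 rows, 179 (11.8%) did have such a row. In the other families of the intron, 19 of 59 rows did (3 of miR-297, 10 of miR-466 and 6 of miR-669).

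Within the groups miR-467d-3p varied the most of the 8 members. The within-group SD on the log2(RPM + 1) scale was 0.14 for miR-467a-5p, against a median of 0.30 for the 34 other tested rows within a factor of 2 of its level. It was 0.13 for miR-467e-5p, 0.16 for miR-467c-5p, 0.22 for miR-467d-5p, 0.27 for miR-467a-3p and 0.34 for miR-467e-3p. For miR-467b-5p it was 0.28, close to the median of 0.30 for 108 rows of like level. For miR-467d-3p it was 0.75, against a median of 0.30 for 110 rows of like level.

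The 5p arm was the more abundant one in all 3 miRNAs with both arms in the table, but by very different factors. For miR-467a the 5p arm exceeded the 3p arm by a factor of 315.9, 419.9 and 585.2 in GDE and of 283.7, 280.3 and 272.6 in Control. For miR-467d the factors were 5.04, 12.0 and 14.6 in GDE and 5.04, 9.05 and 8.74 in Control. The range of miR-467d lay below that of miR-467a in full. As counted under these names, the arms of miR-467d were thus far less unequal than those of miR-467a in every library. Whether 3p reads of the one were counted under the other was not checked. For miR-467e the factors lay between 210.7 and 1335 in GDE and between 331.2 and 477.6 in Control, resting on the few tags of miR-467e-3p.

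Averaged over both groups, 5p exceeded 3p on the log2(RPM + 1) scale by 8.06 (SE 0.11; limma, adjusted p = 3.50e-11) for miR-467a and by 2.97 (SE 0.21; limma, adjusted p = 9.00e-07) for miR-467d. Such an imbalance is common: of 155 precursor names with both arms past the filter (1 RPM or more in no fewer than 3 libraries), 92.3% had arms that differed at an adjusted p under 0.05, and 58.7% favoured the 5p arm. Ordered from the strongest excess of 5p to the strongest excess of 3p, miR-467a was number 5 of the 155 and miR-467d number 52. miR-467e was not part of this fit, since its 3p arm reached 1 RPM in only 1 library.

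**Figure D3:**
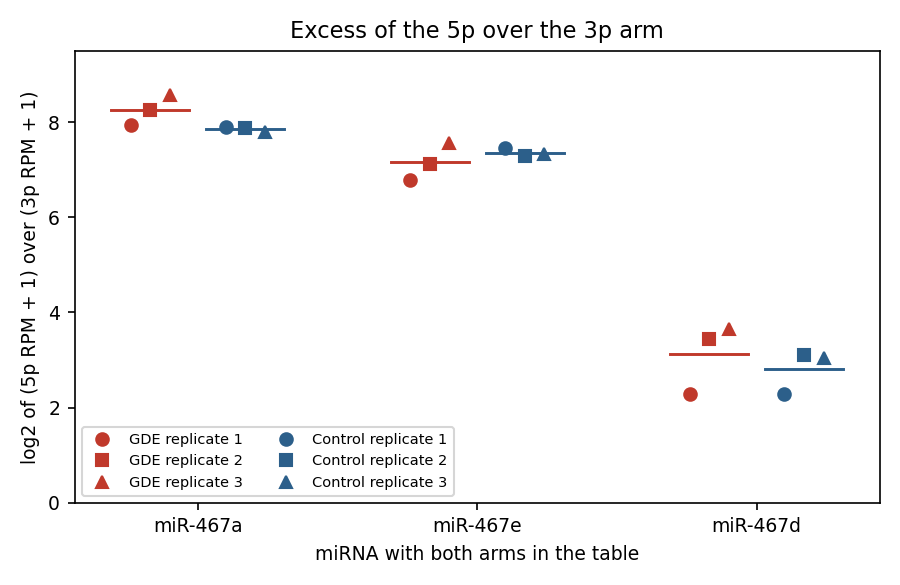
log2 of the 5p level over the 3p level (each RPM + 1) for miR-467a, miR-467e and miR-467d in every library; symbols are libraries and short lines are group means. miR-467a lies between 7.79 and 8.56 and miR-467d between 2.28 and 3.66, with GDE replicate 1 and Control replicate 1 at its low end.

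The balance of the arms was then compared between the groups. For miR-467a the excess of 5p over 3p was larger in GDE, by 0.40 on the log2 scale (SE 0.23; limma, adjusted p = 0.736). All 3 GDE libraries, at 7.95, 8.26 and 8.56, lay above the 3 Control libraries, at 7.89, 7.88 and 7.79, as was so for 5.81% of the 155 precursor names. The difference was 0.25 without GDE replicate 3. With 10 RPM added to each arm in place of 1 it turned to -0.07, as the 3p arm is well below that value. For miR-467d the difference was 0.32 (SE 0.41; limma, adjusted p = 0.932), and without GDE replicate 1 it was 0.74 (limma, adjusted p = 0.488). It was 0.17 without GDE replicate 2 and 0.06 without GDE replicate 3 or without Control replicate 1. Of the 155 precursor names 0.00% passed the threshold of an adjusted p of 0.05 in limma, and no difference in a miR-467 arm ratio was shown to exceed the spread of the libraries.

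The mean level was lower in GDE than in Control for 7 of the 8 members, but no member passed the threshold. The exception was miR-467e-3p, which averaged 0.727 ± 0.493 RPM in GDE and 0.689 ± 0.173 RPM in Control (SD, n = 3 each). limma was run on log2(RPM + 1) over all 649 rows that reached 1 RPM in no fewer than 3 libraries, which left out miR-467e-3p and kept 7 members. Of these, 0 passed at an adjusted p under 0.05 in limma, edgeR, DESeq2 and limma-voom, against 0.308% of all tested rows in limma. At an unadjusted p under 0.05 in limma, 3 of the 7 were lower in GDE (miR-467a-5p, miR-467a-3p and miR-467b-5p), against 4.62% of all tested rows. In 4 of the 7 all GDE libraries lay below all Control libraries (these 3 and miR-467c-5p), against 10.0% of all tested rows. The members come from 1 intron and have related sequences, so they are not independent of each other.

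All 7 tested members had a log2 fold (GDE over Control) below 0; their median was -0.38, while 61.2% of all tested rows were below 0 and the median there was -0.07. With TMM scaling of the RPM the median of the 7 was -0.29 and that of all tested rows 0.01. On this scale the 2 largest folds belonged to low rows, whose folds depend on the RPM added before the log. miR-467a-3p averaged 2.70 ± 0.888 RPM in GDE and 4.94 ± 0.528 RPM in Control (SD, n = 3 each), which makes -0.71 in log2 fold (SE 0.23; limma, adjusted p = 0.551). miR-467b-5p averaged 11.8 ± 2.83 RPM in GDE and 19.3 ± 3.06 RPM in Control (SD, n = 3 each), which makes -0.69 in log2 fold (SE 0.25; limma, adjusted p = 0.561). With 10 RPM added in place of 1, the fold of miR-467a-3p was -0.24 and that of miR-467b-5p -0.43. The GDE mean was 54.7% of the Control mean for miR-467a-3p and 60.9% for miR-467b-5p.

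miR-467a-5p, the main product of the array, averaged 1111 ± 42.9 RPM in GDE and 1380 ± 171 RPM in Control (SD, n = 3 each), or 80.5% of the Control mean, and the log2 fold was -0.31 (SE 0.12; limma, adjusted p = 0.561). The GDE libraries were close to each other and the spread lay in Control. miR-467c-5p averaged 125.4 ± 13.1 RPM in GDE and 163.3 ± 19.3 RPM in Control (SD, n = 3 each), and the log2 fold was -0.38 (SE 0.19; limma, adjusted p = 0.570). For these 4 rows without overlap an exact two-sided permutation test of the group labels gave p = 0.1 each, and 3 against 3 libraries can give no smaller p.

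The other tested members had overlapping groups. miR-467d-5p averaged 103.9 ± 18.8 RPM in GDE and 127.2 ± 16.4 RPM in Control, and the log2 fold was -0.30 (SE 0.22; limma, adjusted p = 0.687). It was -0.17 without GDE replicate 3 and -0.19 without Control replicate 2. miR-467e-5p averaged 238.7 ± 24.9 RPM in GDE and 275.6 ± 19.8 RPM in Control, and the log2 fold was -0.21 (SE 0.17; limma, adjusted p = 0.723), or -0.12 with TMM scaling. For miR-467d-3p the means were 13.0 ± 10.1 RPM in GDE and 17.6 ± 5.04 RPM in Control (SD, n = 3 in each group of these 3 rows), and the log2 fold was -0.62 (SE 0.47; limma, adjusted p = 0.702). Single libraries decided this last value: leaving out GDE replicate 1 gave -1.17, leaving out GDE replicate 3 gave -0.22, and leaving out Control replicate 1 gave -0.41, while edgeR on the whole tags gave -0.34.

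miR-467h, whose hairpin lies on chromosome 9, was at 1.42, 1.86 and 1.81 RPM in GDE and at 1.08, 1.94 and 1.53 RPM in Control. Its GDE libraries lay inside the Control range, and the log2 fold was 0.11 (SE 0.21; limma, adjusted p = 0.910). Whether it differed from the members in this was not tested. In bulk RNA of this kind, fewer cells of a type and less RNA per cell cannot be told apart.

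**Figure D4:**
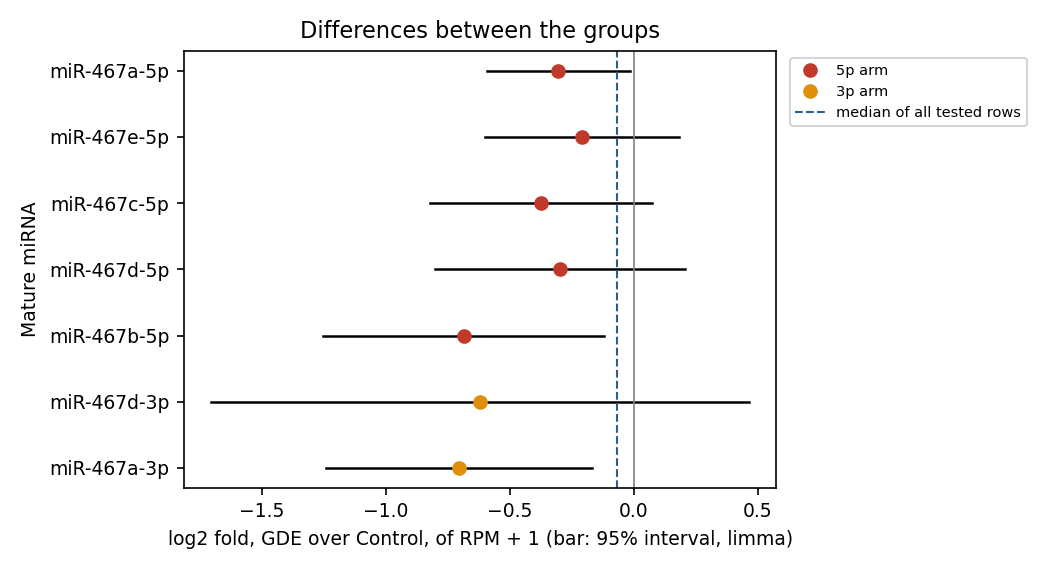
log2 fold of GDE over Control (on RPM + 1) with its 95% interval from limma for the 7 tested miR-467 arms; the dashed line is the median of all 649 tested rows, -0.07. All 7 points lie below 0, the intervals of miR-467a-5p, miR-467b-5p and miR-467a-3p end below 0 before adjustment, and that of miR-467d-3p is the widest.

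The arms were then set against their Control means, library by library. All 3 3p arms had their highest GDE value in replicate 1, and the median ratio of GDE replicate 1 over GDE replicate 3 was 4.18 for the 3p arms and 1.22 for the 5p arms of the family. Among tested 3p rows of the miR-297, miR-466 and miR-669 families, all 10 with distinct values were also highest in GDE replicate 1, while 3 of the 19 distinct 5p rows were. Of the 5 miR-467 5p arms, 3 were highest in that library too. Among the other rows tested, 43.3% of 252 distinct 3p rows and 38.7% of 235 distinct 5p rows had their highest GDE value there. This contrast was seen after the values were known and was not tested.

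**Figure D5:**
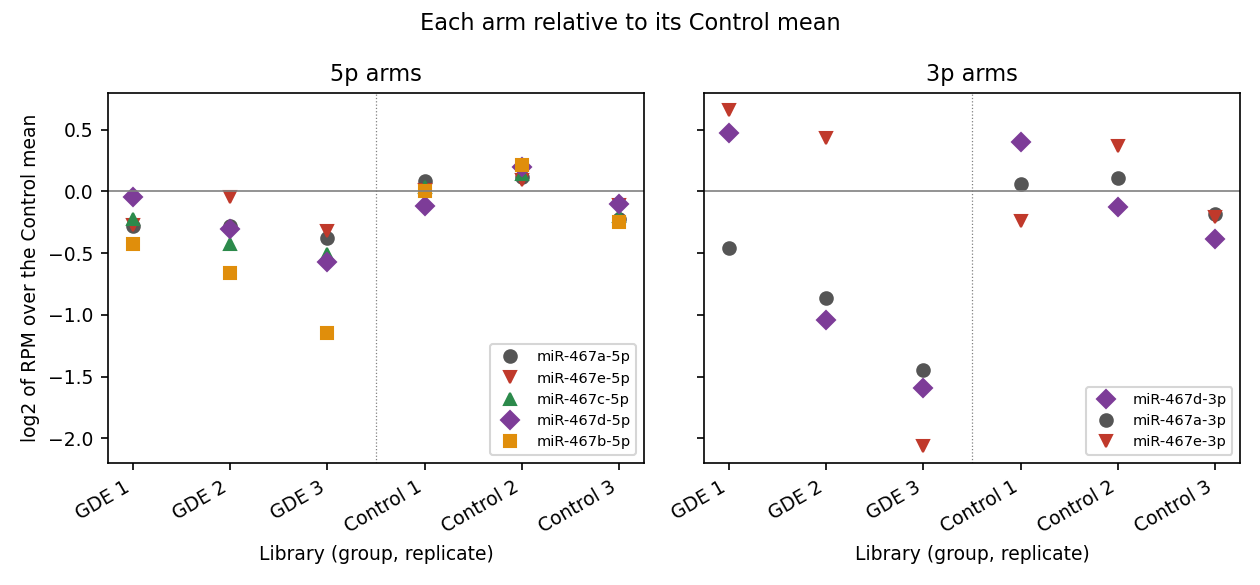
log2 of the RPM of each arm over its Control mean, by library, for the 5p arms (left) and the 3p arms (right); symbols are members. The 5p arms lie below 0 in all GDE libraries, while the 3p arms of miR-467d and miR-467e are above 0 in GDE replicate 1 and all 3p arms are far below 0 in GDE replicate 3.

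The other families of the intron, listed by name, were read beside the members. Of 38 tested rows of miR-297, miR-466 and miR-669, 34 were below 0 in log2 fold, at a median of -0.28, against 61.2% of all tested rows. Several of the 38 rows had identical values, so they are not all separate. Toward lower values in GDE 0 passed the threshold, with 0 at an unadjusted p under 0.05 in limma, against 4.62% of all tested rows. By family the median was -0.21 over 3 miR-297 rows, -0.35 over 19 miR-466 rows and -0.22 over 16 miR-669 rows. Toward higher values 2 of the 38 rows had an unadjusted p under 0.05 in limma, against 26 of all 649 tested rows. One was miR-669c-5p, named after its values were seen, which did not pass the adjusted threshold (log2 fold 2.44; limma, adjusted p = 0.551). The other, miR-297c-5p, passed; its precursor lies downstream of Mir467d at 10509016 to 10509113. It was at 136.2, 172.6 and 200.3 RPM in GDE and at 0.083, 0 and 0 RPM in Control (limma, adjusted p = 4.72e-07). This row passed the filter through the GDE libraries only, so the filter and the p draw on the same values. No miR-467 arm, including both arms of the neighbouring Mir467d, had a pattern of this kind.

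The rows outside the members whose log2(RPM + 1) followed miR-467a-5p most closely over the 6 libraries were picked as the 5 highest Pearson correlations among 555 named rows, so no p is given. They were miR-669o-5p (r = 0.98, rho = 0.89) and miR-669f-5p (r = 0.97, rho = 0.83) of the same intron, miR-155-5p (r = 0.97, rho = 0.77), an miRNA of activated immune cells, miR-1839-3p (r = 0.95, rho = 0.94), and miR-34b-3p (r = 0.95, rho = 0.94), of multiciliated cells. miR-669o-5p averaged 48.4 ± 1.63 RPM in GDE and 64.5 ± 7.04 RPM in Control, and miR-34b-3p 647.2 ± 22.6 RPM in GDE and 903.3 ± 214.1 RPM in Control (SD, n = 3 each). The 2 libraries farthest from the median of miR-467a-5p were Control replicates 1 and 2. Without them Control replicate 3 was the only Control library left. There r was 0.86 for miR-669o-5p, 0.48 for miR-669f-5p, 0.86 for miR-155-5p, 0.95 for miR-1839-3p and 0.80 for miR-34b-3p. All points share their library, and the difference between the groups is part of each r. Within the family r with miR-467a-5p was 0.95 for miR-467c-5p, 0.90 for miR-467b-5p, 0.86 for miR-467a-3p and for miR-467e-5p, 0.74 for miR-467d-5p and 0.59 for miR-467d-3p. Set among the 555 outside rows, these 6 would rank 6, 14, 23, 27, 72 and 140 in that order, so many outside rows followed miR-467a-5p more closely.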

How the data were processed

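The RPM deposited by the authors are called expression in the file headers; the unit was read from the values. In each library all values were whole multiples of 1 step (100% within 0.1 tags), which gave the tags and the depth. Per the labels' protocols, RNA was extracted with TRIzol and libraries made with the MGIEasy Small RNA kit. Bowtie2 and mm10 are named in the submitters' processing notes; the handling of reads that match several miRNAs is not stated there. The members and lists were chosen with earlier results of these data known.

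limma 3.58.1 in R 4.3.3 was run with a trend on log2(RPM + 1), two-sided, with Benjamini-Hochberg adjustment over all rows that reached 1 RPM in no fewer than 3 libraries. Named rows were the members, miR-467h, intron rows past the threshold and the 5 rows most like miR-467a-5p; the part of the rule on shared seeds was not used. Alternatives used edgeR 4.0.16, which called 2 rows on the recovered tags, DESeq2 1.42.0 and limma-voom. The tests were also run on simulated data, in which the changes were larger than the folds of the members. That run does not show how often differences as small as those of the members would be found. Between replicates of a group the chi-square of the tags, divided by its degrees of freedom, was 47.1 to 173.1, far above the 1 of pure sampling noise. Positions are from RefSeq GRCm38.p6 and GENCODE M21 (GRCm38, the assembly called mm10).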

Additional observations from a re-analysis of the deposited data

How the results depend on the processing

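Over 16 alternatives the 7 tested members had a negative log2 fold and an adjusted p above the threshold in all 111 values that could be computed, and 0 members passed in each alternative, leaving out any library included (0 to 0). The adjusted p of the members lay between 0.370 and 0.963. The count over all rows was 2, and 2 with the replicate number as a block. It was 1 with at least 10 RPM in 3 libraries and with limma-voom and 5 with DESeq2, and it lay between 1 and 2 when a library was left out (1 without GDE replicate 2, GDE replicate 3, Control replicate 1 or Control replicate 3). Arm ratios that differed between the groups numbered 0, with a block 0, with no filter 1, and 0 to 0 without single libraries. Precursor names with unequal arms numbered 143, against 295 with no filter and 63 with at least 10 RPM, where 370 and 71 were tested, 144 with a block, and 137 to 142 without single libraries. The arm difference of miR-467a was -0.067 with a pseudocount of 10 RPM. The cause of the other changes was not tested. Same-numbered deviations from the group means correlated at -0.03, -0.12 and -0.03, and no library correlated best with its own number. These values give no sign of pairing by replicate number, but they cannot exclude it. Depth limits miR-467e-3p, at 2 to 13 tags per library; a count of 0 allows 3 tags, and intervals cover counting error only.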
